A study of Mus musculus with 4 samples.

Results

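The genes described here encode the proteins that build the mitochondrial respiratory chain without being part of it, together with the enzymes that make coenzyme Q. They were chosen by name among the genes with a deposited value: the numbered Ndufaf, Coa, Coq, Sdhaf, Uqcc and Atpaf families, the assembly members of the Cox family, and 14 assembly factors and enzymes listed singly, of which Pet117 is not analysed here. The rule found 55 genes among the 13677 in the tables. RNA was sequenced from the inguinal fat pad, a white depot under the skin, of mice. The groups were 2 wildtype (WT) libraries and 2 libraries labelled FLCNKO, in which Flcn, encoding the tumour suppressor folliculin, is said to be knocked out in fat. The labels give no strain, age, sex, Cre driver or deleted exon, and they give no treatment. No library is tied to an animal either, so every p-value rests on the spread of these 4 libraries, which may be technical. Flcn itself was at 12.36 and 12.21 in WT and 12.35 and 12.12 in FLCNKO (limma adjusted p = 0.852), with overlapping groups. With the deleted part not given, and cells other than adipocytes present, that value does not check the labels.

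Respiratory complexes are assembled from subunits of nuclear and mitochondrial origin by dedicated factors that insert cofactors, hold unfinished modules and then leave. Coenzyme Q is the lipid that carries electrons from complexes I and II to complex III. It is made in the inner mitochondrial membrane from a ring and a polyprenyl tail by a complex of Coq proteins. Brown and beige adipocytes are rich in respiratory chain, and the series asks how folliculin relates to the browning of white fat.

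Nearly the whole group lay higher in the FLCNKO libraries, by a modest amount. The log2 difference, FLCNKO mean minus WT mean, was above 0 for 54 of 55 genes, against 50.4% of all genes. Its median over the group was 0.63, which corresponds to 1.55-fold, against 0.0046 over all genes. In 51 of the 55 genes both FLCNKO values exceeded both WT values, as they did in 29.2% of all genes, and in 1 (Coq8b) both lay below, against 25.4% of all genes. Single genes seldom passed the test: limma called 2 members higher (adjusted p under 0.05 over all genes, a share of 3.64%, against 0.98% of all genes) and 0 lower (against 0.614% of all genes). At an unadjusted p under 0.05 limma gave 41 members higher and 0 lower, against 12.1% and 10.3% of all genes. The 2 members that rose were Ndufaf4, a complex I assembly factor, and Coq7, the hydroxylase of the penultimate step of coenzyme Q synthesis. A further 19 members (34.5%) had an adjusted p of at least 0.05 and under 0.1, against 6.88% of all genes. With any 1 library left out limma called 0 of all 13677 genes in either direction, so these fits cannot tell whether a call holds. The log2 difference of Ndufaf4 stayed between 1.01 and 1.02 in them and that of Coq7 between 0.98 and 1.31. The adjusted p of Ndufaf4 was then 0.291 without WT replicate 1, 0.255 without WT replicate 2, 0.103 without FLCNKO replicate 1 and 0.0671 without FLCNKO replicate 2. The adjusted p of Coq7 in limma was 0.32, 0.257, 0.103 and 0.0631 in the same order. Without the mean-variance trend limma also called 0 of all genes, and the adjusted p of Coq7 was 0.144.

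**Figure D1:**
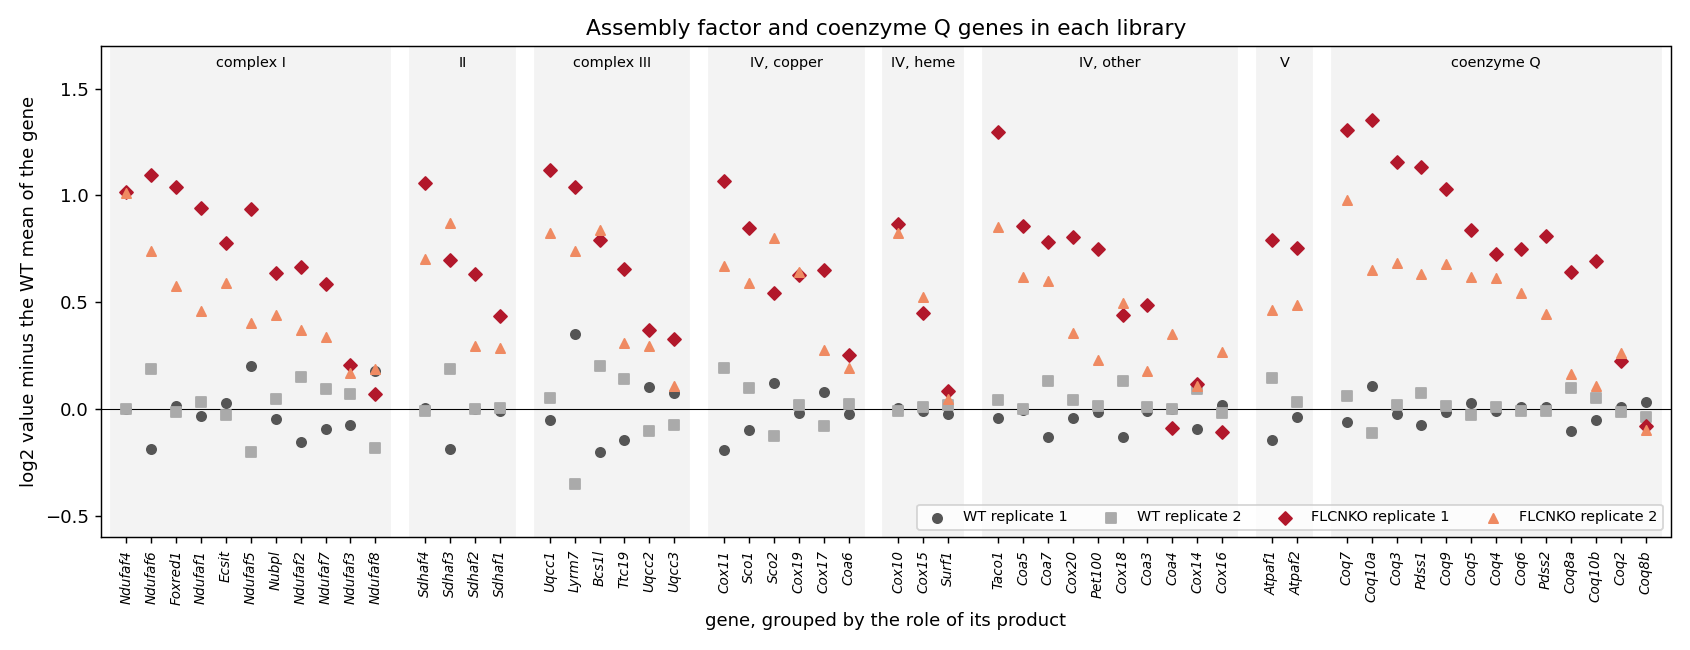
Each column is a gene, grouped by the role of its product, and the points are its 4 libraries as the log2 value minus the WT mean of that gene (circles and squares for WT, diamonds and triangles for FLCNKO). In 51 of 55 genes both FLCNKO points lie above both WT points, and FLCNKO replicate 1 lies above replicate 2 in 45.

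Promoter sequences from RefSeq on GRCm38.p6, from 250 bases before to 50 after a gene's start, were found by symbol for 49 of the 55 genes. The 3 printed here belong to the 2 genes that rose and to Cox10, the only promoter of the group with matches to more than 1 of the 5 motifs searched. Each is written 5′ to 3′ on the strand of its gene, and capitals mark the motif matches. Ndufaf4 lies at chr4:24897833-24898132 (plus strand), Coq7 at chr7:118533307-118533606 (minus strand) and Cox10 at chr11:64079423-64079722 (minus strand).
Ndufaf4: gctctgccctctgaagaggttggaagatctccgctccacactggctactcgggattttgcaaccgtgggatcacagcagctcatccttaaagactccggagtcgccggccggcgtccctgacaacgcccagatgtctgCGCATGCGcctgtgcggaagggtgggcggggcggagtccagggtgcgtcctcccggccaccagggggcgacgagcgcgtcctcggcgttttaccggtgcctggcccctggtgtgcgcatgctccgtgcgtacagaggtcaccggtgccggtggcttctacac
Coq7: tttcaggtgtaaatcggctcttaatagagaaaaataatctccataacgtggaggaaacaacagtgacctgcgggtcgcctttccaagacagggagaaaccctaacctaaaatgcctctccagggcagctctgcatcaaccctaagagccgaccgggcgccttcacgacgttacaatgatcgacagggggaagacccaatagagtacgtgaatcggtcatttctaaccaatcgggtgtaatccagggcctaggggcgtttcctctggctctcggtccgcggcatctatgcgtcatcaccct
Cox10: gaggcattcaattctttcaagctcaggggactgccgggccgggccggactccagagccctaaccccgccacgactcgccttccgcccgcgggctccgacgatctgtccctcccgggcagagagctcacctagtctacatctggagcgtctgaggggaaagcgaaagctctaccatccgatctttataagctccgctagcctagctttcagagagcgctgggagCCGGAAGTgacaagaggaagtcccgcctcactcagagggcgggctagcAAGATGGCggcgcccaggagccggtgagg

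The motifs were searched as exact letters on both strands, and none of them contains another. Shares of the 49 and of measured genes count a gene with a match in any of its promoters. Shares of all 32851 promoters count single promoters. CGCATGCG, the core of the site of NRF1, a regulator of respiratory genes, begins 112 bases before the start of Ndufaf4. It was found in 3 of the 49 genes (Ndufaf4, Ndufaf5 and Ttc19), a share of 6.12%. This stood against 4.14% of 10547 measured genes with a promoter and 1.87% of all 32851 promoters. CCGGAAGT, an ETS family site, begins 27 bases before the start of Cox10 and was found in 5 of 49 (10.2%; Bcs1l, Cox10, Cox14, Cox15 and Cox16), against 8.65% of measured genes and 3.89% of all promoters. AAGATGGC, a YY1 site, was found in 6 of 49 (12.2%; Atpaf2, Coq9, Cox10, Cox20, Ndufaf8 and Uqcc2), against 5.07% and 2.75%. TCAAGGTCA, the site of estrogen-related receptors, and TCACGTGA, an E-box of the MiT/TFE family, were found in 0 of 49, against 0.332% and 2.07% of measured genes and 0.423% and 0.974% of all promoters. The 5 genes with the ETS letters had log2 differences of 0.85 (Cox10), 0.81 (Bcs1l), 0.49 (Cox15), 0.11 (Cox14) and 0.08 (Cox16), and the 3 with the NRF1 letters had 1.01 (Ndufaf4), 0.67 (Ndufaf5) and 0.48 (Ttc19). Whether a match goes with the size of the difference was not tested.

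Complex I, which oxidises NADH, is put together from modules, and 11 of its assembly genes were measured. Of these 1 rose (Ndufaf4), against 0.98% of all genes, and 10 had both FLCNKO values above both WT values, against 29.2% of all genes. The median log2 difference of the 11 was 0.67 (range 0.13 to 1.01). Ndufaf4, which acts on an early module of the complex, had log2 levels of 10.93 and 10.93 in WT and 11.95 and 11.94 in FLCNKO. The groups were far apart relative to their spread, with means of 10.93 ± 0.0012 and 11.95 ± 0.0036 (SD, n = 2). The log2 difference of Ndufaf4 was 1.01 ± 0.11 (SE; limma adjusted p = 0.0404), a 2.02-fold change. Its SE is larger than these SDs would give because limma draws each variance toward that of genes of similar level. Without the trend on level its SE was still 0.11. Its limma adjusted p was then 0.14, in a fit that called 0 of all genes. Ndufaf3, its partner in that module, had 10.34 and 10.49 in WT and 10.62 and 10.58 in FLCNKO, a log2 difference of 0.19 ± 0.13 (limma adjusted p = 0.458).

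Ecsit and Ndufaf1, which encode members of a shared intermediate assembly complex, had log2 differences of 0.68 ± 0.12 and 0.70 ± 0.19 (SE; limma adjusted p = 0.0641 and 0.117). Ecsit was at 11.50 and 11.45 in WT and 12.25 and 12.07 in FLCNKO. Both FLCNKO libraries were above both WT libraries in each of the pair. Ndufaf6, which had the next highest difference of the complex I genes after Ndufaf4, had log2 levels of 8.22 and 8.60 in WT and 9.50 and 9.15 in FLCNKO (log2 difference 0.92 ± 0.24, limma adjusted p = 0.114). Foxred1, which encodes an FAD-dependent factor, had a log2 difference of 0.81, and Nubpl, which encodes an iron-sulfur protein of complex I biogenesis, 0.54. Ndufaf5 and Ndufaf7, which encode enzymes that modify arginines of complex I subunits, had differences of 0.67 and 0.46, and Ndufaf2 had 0.52. The values of Ndufaf2 and Ecsit are uncertain, since transcripts of other genes, mainly B230220B15Rik and Gm16845, also hold 65.1% and 25.1% of their 31-base stretches. Ndufaf8, which encodes a stabilising partner of the Ndufaf5 protein, had 9.23 and 8.87 in WT and 9.12 and 9.23 in FLCNKO. It was the 1 complex I gene whose groups overlapped, with a log2 difference of 0.13 ± 0.20 (limma adjusted p = 0.752) that became -0.049 without WT replicate 2.

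In complex II, which is succinate dehydrogenase, all 4 measured assembly genes had FLCNKO values above both WT values, against 29.2% of all genes. Limma called 0 of them and gave 4 higher at an unadjusted p under 0.05, against 0.98% and 12.1% of all genes higher. Their median log2 difference was 0.62 (range 0.36 to 0.88). Sdhaf4, which encodes a chaperone of the flavin-loaded catalytic subunit, had log2 levels of 10.41 and 10.39 in WT and 11.46 and 11.10 in FLCNKO (log2 difference 0.88 ± 0.16, SE; limma adjusted p = 0.0668). Sdhaf3, which takes part in iron-sulfur insertion, had 9.43 and 9.80 in WT and 10.31 and 10.48 in FLCNKO (0.78 ± 0.19, limma adjusted p = 0.0991). In Sdhaf4 the lower FLCNKO library was replicate 2, and in Sdhaf3 it was replicate 1. Sdhaf2, which encodes the flavinylation factor, and Sdhaf1, which acts in iron-sulfur insertion, had log2 differences of 0.46 and 0.36. Sdhaf1 is uncertain, with 69.9% of its 31-base stretches shared, mainly with E130208F15Rik.

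Complex III receives electrons from coenzyme Q. All 6 of its measured assembly genes had FLCNKO values above both WT values, against 29.2% of all genes. Limma called 0 and gave 5 higher at an unadjusted p under 0.05, against 0.98% and 12.1% of all genes higher. The median log2 difference of the 6 was 0.65 (range 0.22 to 0.97). Uqcc1, which encodes a factor for newly made cytochrome b, had log2 levels of 11.99 and 12.10 in WT and 13.16 and 12.87 in FLCNKO. Its FLCNKO libraries lay well above WT, and its log2 difference of 0.97 ± 0.14 (SE) missed the threshold by little (limma adjusted p = 0.0509). Uqcc2 and Uqcc3, which act with it on cytochrome b, had smaller differences of 0.33 and 0.22. The Rieske iron-sulfur subunit is inserted late, by the products of Lyrm7, its chaperone, and Bcs1l, its translocase. Lyrm7 had 9.21 and 8.50 in WT and 9.90 and 9.60 in FLCNKO, and Bcs1l 9.96 and 10.37 in WT and 10.95 and 11.004 in FLCNKO. The WT libraries of both genes differed among themselves by more than the FLCNKO libraries did. The log2 differences were 0.89 ± 0.29 for Lyrm7 and 0.81 ± 0.18 for Bcs1l (limma adjusted p = 0.164 and 0.0857). Ttc19, whose product clears fragments of the Rieske protein, had 0.48.

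Complex IV, cytochrome c oxidase, needs heme A, copper and the translation and insertion of mitochondrially encoded subunits. Of 19 measured genes 17 had FLCNKO values above both WT values, against 29.2% of all genes. Limma called 0 and gave 12 higher at an unadjusted p under 0.05, against 0.98% and 12.1% of all genes higher. The median log2 difference of the 19 was 0.49 (range 0.07 to 1.07). Among the heme genes, Cox10, which makes heme O, had 10.12 and 10.11 in WT and 10.99 and 10.94 in FLCNKO. Cox15, which turns heme O into heme A, had 11.55 and 11.57 in WT and 12.01 and 12.09 in FLCNKO. Both showed tight replicates and groups that did not overlap. The log2 difference was 0.85 ± 0.12 for Cox10 (SE; limma adjusted p = 0.0512) and 0.49 ± 0.11 for Cox15 (limma adjusted p = 0.0873). Surf1, which acts after heme A synthesis, had 12.21 and 12.25 in WT and 12.31 and 12.28 in FLCNKO. Its groups were separated by little, and its log2 difference was 0.07 ± 0.10 (limma adjusted p = 0.754). Its 95% interval ran from -0.20 to 0.33.

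The 6 copper genes all had FLCNKO values above both WT values, against 29.2% of all genes. Their median log2 difference was 0.65 (range 0.22 to 0.87). Cox19, which encodes a copper-binding protein of the intermembrane space, had 11.84 and 11.88 in WT and 12.48 and 12.50 in FLCNKO (log2 difference 0.63 ± 0.10, SE; limma adjusted p = 0.0584). Sco1 and Sco2, paralogs that deliver copper to the second core subunit, had similar differences. Sco1 was at 9.46 and 9.65 in WT and 10.41 and 10.15 in FLCNKO (0.72 ± 0.17, limma adjusted p = 0.0979). Sco2 was at 9.05 and 8.80 in WT and 9.47 and 9.73 in FLCNKO (0.67 ± 0.19, limma adjusted p = 0.134). The value of Sco2 is uncertain because 89.7% of its 31-base stretches also occur in transcripts of other genes, mainly Ncaph2 on the opposite strand, and the strand setting of the counting is not given. Cox11, which carries copper to the first core subunit, had 8.86 and 9.25 in WT and 10.12 and 9.73 in FLCNKO. Its difference of 0.87 ± 0.23 (limma adjusted p = 0.115) is uncertain in the same way, with 47.9% shared, mainly with Tom1l1. Cox17, the copper chaperone gene upstream of these, had 0.46, and Coa6 had 0.22.

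Among the other 10 complex IV genes, 8 had FLCNKO values above both WT values, against 29.2% of all genes. The median log2 difference of the 10 was 0.48. Taco1, whose product activates translation of the first core subunit, had the second highest difference of all 55 genes. Its log2 levels were 9.85 and 9.93 in WT and 11.19 and 10.74 in FLCNKO, and the log2 difference was 1.07 ± 0.19 (SE; limma adjusted p = 0.064). Coa5, a complex IV assembly factor gene, had 13.67 and 13.67 in WT and 14.52 and 14.29 in FLCNKO (0.74 ± 0.12, limma adjusted p = 0.0607). The groups of both genes were clear of each other. Cox14 and Coa3, whose products bind the newly made first core subunit, had smaller differences. Cox14 was at 11.53 and 11.72 in WT and 11.75 and 11.74 in FLCNKO (0.11 ± 0.12, limma adjusted p = 0.631), with the highest WT value just below both FLCNKO values, and Coa3 had 0.33. Cox20 and Cox18, which act on the second core subunit, had 0.58 and 0.47, and Coa7 and Pet100 had 0.69 and 0.49. Cox20 and Pet100 are uncertain, with 89.2% and 48.9% of their 31-base stretches shared, mainly with Hnrnpu and Pcp2. The 2 genes of this set with overlapping groups were Coa4, at 8.61 and 8.61 in WT and 8.52 and 8.96 in FLCNKO, and Cox16, at 7.37 and 7.33 in WT and 7.25 and 7.62 in FLCNKO. Their log2 differences were 0.13 ± 0.23 and 0.08 ± 0.32 (limma adjusted p = 0.788 and 0.909), and without FLCNKO replicate 2 they were -0.09 for Coa4 and -0.10 for Cox16. Cox16 shares 55.2% of its 31-base stretches, mainly with Gm20498.

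The ATP synthase has 2 measured assembly genes, Atpaf1 and Atpaf2, whose products bind the beta and the alpha subunit. Atpaf1 had log2 levels of 8.69 and 8.97 in WT and 9.62 and 9.30 in FLCNKO, and Atpaf2 had 12.50 and 12.57 in WT and 13.30 and 13.03 in FLCNKO. In both the FLCNKO values lay above both WT values, against 29.2% of all genes. Their log2 differences were close to each other, at 0.63 ± 0.21 and 0.62 ± 0.13 (SE; limma adjusted p = 0.178 and 0.0825). Atpaf1 shares 23.1% of its 31-base stretches with other genes, mainly Gm14117.

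**Figure D2:**
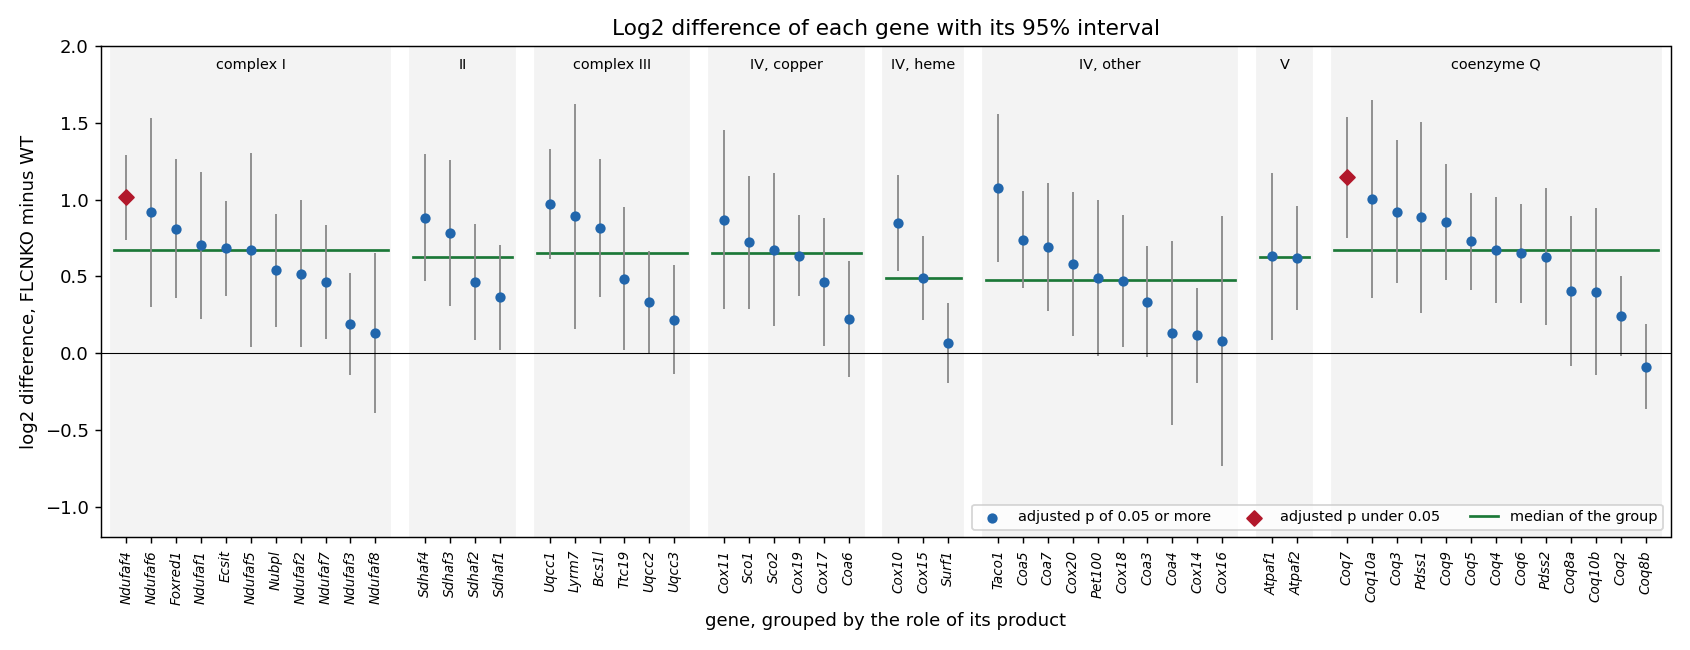
Points are the log2 differences, FLCNKO minus WT, of the 55 genes with their 95% intervals from limma (2 libraries per group), and green lines are the medians of the role groups. Ndufaf4 and Coq7, drawn as diamonds, passed an adjusted p of 0.05, and 41 of the 55 intervals lie above 0.

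Coenzyme Q synthesis had 13 measured genes. Of these 1 rose (Coq7), against 0.98% of all genes, and 12 had FLCNKO values above both WT values, against 29.2% of all genes. The median log2 difference of the 13 was 0.67 (range -0.09 to 1.14). Coq7 had log2 levels of 10.79 and 10.91 in WT and 12.16 and 11.83 in FLCNKO, means of 10.85 ± 0.08 and 11.99 ± 0.23 (SD, n = 2). Both FLCNKO libraries were far above WT, replicate 1 more so. The log2 difference of Coq7, the highest of the 55, was 1.14 ± 0.15 (SE; limma adjusted p = 0.0478), a 2.21-fold change. The 95% interval of that log2 difference ran from 0.75 to 1.54. Coq9, which encodes the lipid-binding partner of the Coq7 hydroxylase, had 13.33 and 13.36 in WT and 14.37 and 14.02 in FLCNKO (0.85 ± 0.15, limma adjusted p = 0.0622).

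The ring-modifying enzymes other than Coq7 lay in the same direction without passing. Coq3, the O-methyltransferase gene, had log2 levels of 11.35 and 11.40 in WT and 12.53 and 12.06 in FLCNKO (log2 difference 0.92 ± 0.18, SE; limma adjusted p = 0.073). Coq5, the C-methyltransferase gene, had 11.90 and 11.84 in WT and 12.71 and 12.49 in FLCNKO (0.73 ± 0.12, limma adjusted p = 0.062). In both genes the WT libraries were close together and FLCNKO replicate 1 was the highest library. Coq6, which encodes a flavin-dependent monooxygenase, had a log2 difference of 0.65, and Coq4, whose product is needed for the synthesis complex, 0.67. Coq4 shares 28.7% of its 31-base stretches, mainly with Trub2.

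The tail is made by an enzyme of Pdss1 and Pdss2 subunits and is joined to the ring by the Coq2 product. Pdss1 was at 8.30 and 8.46 in WT and 9.51 and 9.01 in FLCNKO, a log2 difference of 0.88 ± 0.24 (SE; limma adjusted p = 0.124). Pdss2 was at 9.74 and 9.72 in WT and 10.54 and 10.17 in FLCNKO, a difference of 0.63 ± 0.17 (limma adjusted p = 0.126). Both FLCNKO libraries exceeded WT for each subunit. Coq2 had a smaller difference of 0.24 ± 0.10 (limma adjusted p = 0.245).

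The paralog pairs of the pathway were not alike in their values, and the difference between paralogs was not tested. Coq10a and Coq10b encode lipid-binding proteins needed for coenzyme Q to work in the chain. Coq10a had 11.55 and 11.33 in WT and 12.80 and 12.09 in FLCNKO, a log2 difference of 1.003 ± 0.25 (SE; limma adjusted p = 0.107) that was 0.65 without FLCNKO replicate 1. Coq10b had 11.57 and 11.68 in WT and 12.32 and 11.73 in FLCNKO, a difference of 0.40 ± 0.21 (limma adjusted p = 0.339). FLCNKO replicate 2 of Coq10b stood just above WT, and without FLCNKO replicate 1 the difference was 0.11. Coq8a and Coq8b encode atypical kinases of the synthesis complex. Coq8a had 12.32 and 12.52 in WT and 13.06 and 12.58 in FLCNKO (0.40 ± 0.19, limma adjusted p = 0.29), and 0.16 without FLCNKO replicate 1. Coq8b had 11.63 and 11.56 in WT and 11.52 and 11.50 in FLCNKO. It was the 1 gene of the 55 with a difference below 0, at -0.09 ± 0.11 (limma adjusted p = 0.687), although both FLCNKO values were under both WT values.

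Other genes of respiratory chain assembly and its cofactors, which the name rule does not take in, pointed the same way. Of 24 measured genes of a list of 28, 1 rose and 0 fell, against 0.98% and 0.614% of all genes. At an unadjusted p under 0.05 limma gave 12 higher and 0 lower, against 12.1% and 10.3% of all genes. In 21 both FLCNKO values were above both WT values, against 29.2% of all genes. The median log2 difference of the 24 was 0.41. The gene that rose was Lrpprc, whose product binds and stabilises mitochondrial messenger RNAs. Lrpprc had log2 levels of 12.15 and 12.18 in WT and 13.26 and 12.99 in FLCNKO (log2 difference 0.96 ± 0.13, SE; limma adjusted p = 0.0478), and its log2 difference lay between 0.82 and 1.09 in the fits without 1 library, in which limma called no gene of the series. Its adjusted p in limma was then 0.336 without WT replicate 1, 0.265 without WT replicate 2, 0.103 without FLCNKO replicate 1 and 0.0615 without FLCNKO replicate 2. Aifm1 and Chchd4, whose products act together in import into the intermembrane space, had differences of 0.996 ± 0.16 and 0.67 ± 0.14 (limma adjusted p = 0.0591 and 0.0839). Aifm1 was at 11.97 and 12.13 in WT and 13.24 and 12.85 in FLCNKO, and Chchd4 at 10.45 and 10.42 in WT and 11.24 and 10.98 in FLCNKO. Hccs, which attaches heme to cytochrome c, had 10.39 and 10.62 in WT and 11.63 and 11.31 in FLCNKO (0.96 ± 0.17, limma adjusted p = 0.0622). In each of these genes both FLCNKO libraries were above both WT libraries.

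The subunits that these factors assemble had medians in the same range. The median log2 difference was 0.69 for 36 complex I subunit genes and 0.81 for 44 subunit genes of complexes II to V, against 0.63 for the 55 genes. In limma 1 of the 36 and 5 of the 44 rose, against 0.98% of all genes, and 0 fell, against 0.614%. The highest log2 differences were 3.57 among the complex II to V subunits (Cox7a1, limma adjusted p = 0.055), 1.12 among the complex I subunits (Ndufv1) and 1.14 among the assembly and coenzyme Q genes (Coq7). The lowest were -1.77 (Cox6a2, limma adjusted p = 0.574), 0.19 (Ndufc2) and -0.09 (Coq8b) in the same order. Cox6a2 was at 9.17 and 5.36 in WT and 7.05 and 3.94 in FLCNKO, with overlapping groups. Cox7a1 and Cox8b, counted here as subunits, are also on the brown and beige fat marker list below. The difference between the sets was not tested.

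**Figure D3:**
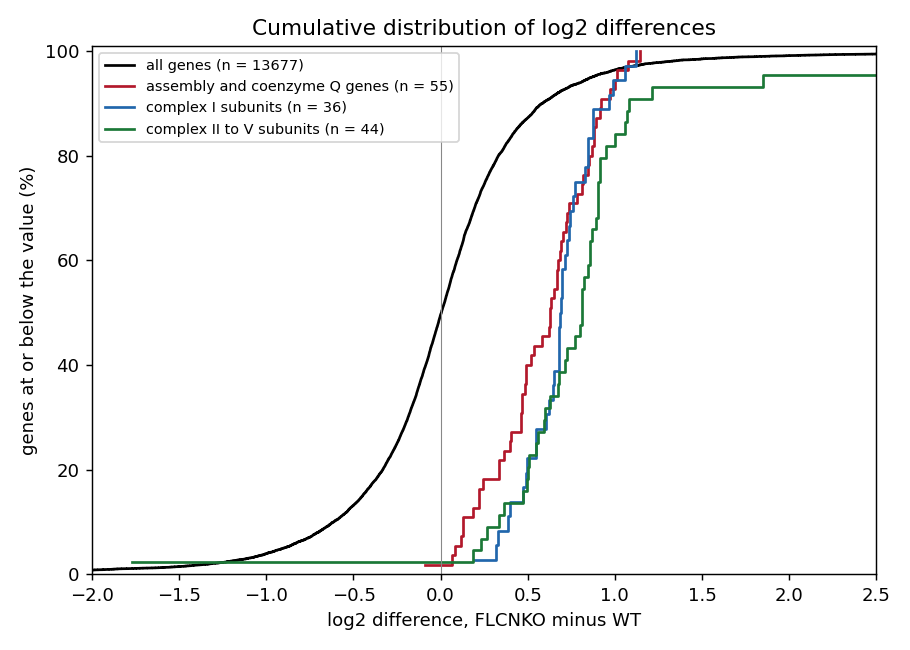
Curves give the share of genes (y axis, %) at or below a log2 difference, FLCNKO minus WT (x axis), for all 13677 genes, the 55 assembly and coenzyme Q genes, 36 complex I subunit genes and 44 subunit genes of complexes II to V. The 3 respiratory sets lie to the right of all genes, with medians of 0.63, 0.69 and 0.81 against 0.0046.

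The FLCNKO libraries were not equal. FLCNKO replicate 1 was above replicate 2 in 45 of the 55 genes, against 48.6% of all genes, with a median gap of 0.25 on the log2 scale. The WT libraries differed by a median of -0.03 (replicate 1 minus replicate 2) in the same genes. Replicate 2 alone was still above both WT libraries in 54 of the 55 genes, against 44.9% of all genes, and replicate 1 alone in 51, against 39.3% of all genes. The median log2 difference of the 55 genes was 0.49 without FLCNKO replicate 1 and 0.75 without replicate 2. By role, the medians without FLCNKO replicate 1 ran from 0.35 for the last set of complex IV genes to 0.62 for coenzyme Q and for copper delivery.

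Marker lists for cell types of the depot also differed between the groups, and in bulk tissue fewer cells of a type cannot be told apart from less RNA per cell. All 10 adipocyte markers had values, with a median log2 difference of -0.09. Of these 2 lay above 0 and 8 below, against 50.4% of all genes above 0, and limma called 0. Adipoq was at 18.31 and 18.17 in WT and 17.72 and 17.85 in FLCNKO (limma adjusted p = 0.185). In 2 of the 10 (Adipoq and Retn) both FLCNKO values lay below both WT values, against 25.4% of all genes. In 1 (Adrb3) both lay above, against 29.2% of all genes. Of 10 brown and beige fat markers 4 rose (Ppara, Cox8b, Otop1 and Ppargc1a), against 0.98% of all genes. Cox7a1, Cidea and Elovl3 had FLCNKO values above both WT values without passing. With the 4 that rose, 7 of the 10 were so placed, against 29.2% of all genes. Ucp1, the uncoupling protein that defines brown fat, was at 10.60 and 7.42 in WT and 13.79 and 10.06 in FLCNKO, with overlapping groups (limma adjusted p = 0.336). Prdm16 and Dio2 had log2 differences of 0.016 and -0.08. The summed level of the 10 markers, as log2 of the sum of the linear values, was 13.81 to 14.41 in WT and 16.49 to 17.71 in FLCNKO. It was highest in FLCNKO replicate 1, which was also the highest library for the median of the 55 genes. The order of the WT libraries differed. The marker sum was 14.41 in WT replicate 1 and 13.81 in WT replicate 2, and the median of the 55 genes was 10.79 and 10.88.

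Of 7 fibroblast and matrix markers 3 fell and all 7 had FLCNKO values below both WT values, against 0.614% and 25.4% of all genes. Their summed levels were 19.86 to 20.004 in WT and 18.82 to 18.97 in FLCNKO. Of 9 macrophage markers 2 fell and all 9 lay below WT, against the same 0.614% and 25.4% of all genes. Their summed levels were 16.95 to 17.15 in WT and 16.03 to 16.34 in FLCNKO. All 8 lymphocyte markers had values, with summed levels of 10.95 to 12.93 in WT and 9.47 to 11.06 in FLCNKO. All 5 endothelial markers had values, with summed levels of 14.85 to 14.91 and 14.73 to 15.04, and 3 of 7 mammary epithelial markers did, with 8.50 to 8.88 and 7.99 to 8.55. No measured marker was at 0, but the lowest deposited value of any gene was 1, so this does not show that each was detected. The part of these cell types in the differences of the 55 genes was not tested.

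Skeletal muscle, another tissue rich in respiratory chain, varied between libraries of both groups. All 12 muscle markers had log2 differences below 0 (median -2.59), and limma called 0 of them. Replicate 1 minus replicate 2 had a median of 3.26 over the 12 markers in WT and 6.23 in FLCNKO. The summed levels were 17.19 and 14.17 in WT and 16.09 and 13.40 in FLCNKO. The sum was lowest in FLCNKO replicate 2, where Acta1, at 13.32, made up most of it. Acta1 was at 14.50 and 12.21 in WT and 13.29 in FLCNKO replicate 1, so it was not lowest there. The part of muscle in the differences of the 55 genes was not tested.

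**Figure D4:**
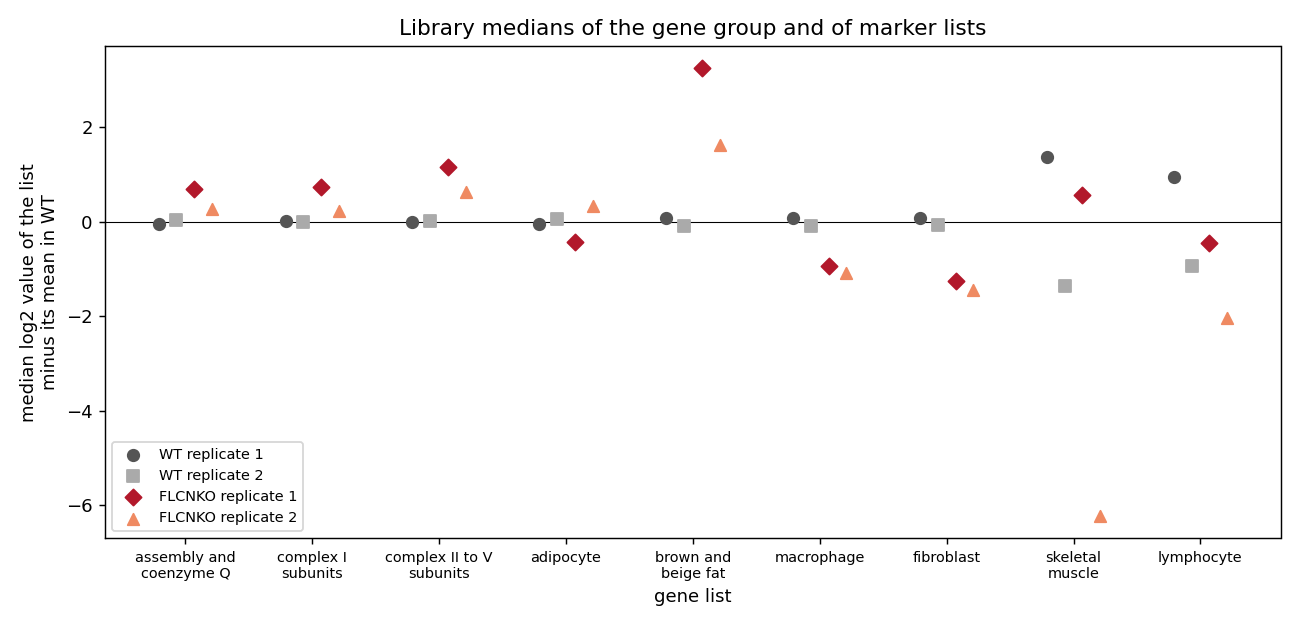
Points are the median log2 value of each gene list in each of the 4 libraries, minus the mean of its 2 WT medians. The assembly and coenzyme Q genes and the subunit lists lie above 0 in both FLCNKO libraries, the macrophage and fibroblast lists below, and the muscle list is lowest in FLCNKO replicate 2.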

How the data were processed

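Total RNA was isolated with Trizol followed by columns, per the labels' protocols. The authors deposited a log2 value for each of 13677 genes per library; STAR, limma and build mm9 are named per the submitters' processing notes. How reads were counted, with which annotation and strand setting, is not given in the sources used here. All 4 libraries had nearly 1 distribution of deposited log2 values (medians from 10.7636 to 10.7645). Depth is therefore unknown, and a change common to most genes would be hidden. No scaling of the values by gene length is known, so levels were not compared between genes, except within the summed marker levels. Each sum weighs most the genes of its list with the highest values.

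Ensembl identifiers gave a symbol for 13592 genes and none for 85. FLCNKO was compared with WT in limma 3.58.1 (R 4.3.3), with group as the only term, a mean-variance trend and two-sided tests (residual degrees of freedom 2, prior 3.09). The Benjamini-Hochberg adjustment ran over all 13677 genes, and calls needed an adjusted p under 0.05. The fit was checked on simulated data. Shared 31-base stretches were counted in GENCODE M21 transcripts. Coordinates are those of the RefSeq promoter table, on GRCm38.p6 and not mm9. Values per library are given for members past the threshold, those with the 12 highest and 5 lowest differences, the 2 with the smallest p in each role, paralog pairs, and the 4 outside genes with the smallest p; Ndufaf3 and Coa4 were added after their values were seen. The members and lists were chosen with earlier results of these data known. Figures were drawn with matplotlib 3.10.9.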

Additional observations from a re-analysis of the deposited data

How the results depend on the processing

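Neither the other variance settings nor the filter, which left out Cox16, can change the log2 difference of a fitted gene. Under both other scalings, of libraries whose medians were already nearly equal, 54 of the 55 differences were above 0. With 1 library left out, 54 were above 0 without WT replicate 1 and 53 without WT replicate 2. The counts were 54 without FLCNKO replicate 1 and 52 without FLCNKO replicate 2. The median of the group lay between 0.49 and 0.75 over all alternatives. The count of members called higher by limma was 2 in the main analysis, with 134 of all genes. It was 4 when only genes with a mean of at least 8 were fitted (Cox10 and Uqcc1 added; 187 of 11311 genes), 5 with robust moderation (201 of all genes), 0 without the mean-variance trend (35 at an unadjusted p under 0.05, and 0 of all genes called), and 0 to 0 when any 1 library was left out, where 0 of all genes were called. The members higher at an unadjusted p under 0.05 were then 21 without WT replicate 1 (756 of all genes), 24 without WT replicate 2 (935), 29 without FLCNKO replicate 1 (1705) and 40 without FLCNKO replicate 2 (1733), against 41 and 1659 with all libraries. A fit left with 1 library in a group assumes that it varies like the others. The 10 members that share at least 20% of their 31-base stretches do not include Coq7 (0.3%) or Ndufaf4 (1.6%). Leaving out the 10, an alternative chosen after seeing the data, therefore could not change the count of 2. The median log2 difference of the other 45 members was 0.63. With 1 library left out, the log2 difference of Flcn ran from -0.17 to 0.063 (0.02 without WT replicate 1, 0.063 without FLCNKO replicate 2), that of Coa4 was -0.09 without FLCNKO replicate 2, that of Cox16 ran from -0.10 (without FLCNKO replicate 2) to 0.27, and that of Ndufaf8 from -0.049 (without WT replicate 2) to 0.31. The labels share replicate numbers but do not say that they pair the libraries. Replicate 1 minus replicate 2 correlated across all genes with r = 0.36 between the groups (genes are not independent replicates). With the replicate number as a block 14 members were called higher, against 2 without the pairing, while calls over all genes went from 134 higher and 84 lower to 401 and 441. The cause of these changes was not tested. Depth is unknown, so what it limits cannot be given.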
